A study of Mus musculus with 15 samples.

Results

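Interferon response genes are the receptors, transcription factors and induced effectors through which cells answer type I and type II interferons. A list of 55 such mouse genes was followed across 15 Illumina bead arrays of cultured pro-B cells and DN3 cells. The members were taken by gene symbol from the platform's probe table, and a gene was kept when 1 of its probes was detected (detection p under 0.05) on at least 3 arrays. Of the 55 genes, 54 had a named probe and 45 were kept, among 9687 kept genes of 19057 with a named probe. The 10 others are Ifi44, which had no named probe, and Ifnar1, Ifih1, Oas1a, Oasl2, Ifit1, Mx1, Gbp6, Isg20 and Xaf1, which were detected on too few arrays.

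Pro-B cells, early committed B cell precursors, were grown from bone marrow of mice aged 6 to 8 weeks for 10 days with IL-7, Flt3L and SCF at 50 ng/ml each. The mice were of mixed C57BL/6 and 129S5 background. There were 4 pro-B groups of 3 arrays each, labelled Bcl11a-deficient (titles EAAE+OHT), wild type (EAAE-OHT), Bcl2-rescued Bcl11a-deficient (Bcl2+OHT) and Bcl2 overexpression wild type (Bcl2-OHT). They are called here labelled deficient and control, each without and with Bcl2. Bcl2 guards mitochondria against apoptosis. The titles give +OHT for both deficient groups and -OHT for both controls, so an effect of OHT itself and of the gene's loss cannot be told apart. The labels do not spell out OHT or EAAE, and name no Cre line or Bcl2 promoter. The remaining 3 arrays are of DN3 cells, T cell precursors, with the genotype label Bcl11bCKO/CKO, strain label C57B7, age 6 to 8 weeks and tissue lymphocytes. They carry the same culture text as the pro-B cells (10 days, 50 ng/ml of each factor), and whether it applies to DN3 cells is not clear from the labels. The series text speaks of 3 batches of culture, so that p-values rest on the spread between cultures.

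The label was checked on the Bcl11a probe. Without Bcl2 its log2 intensity averaged 11.49 ± 0.15 in the group labelled deficient and 9.62 ± 0.35 in controls (SD, n = 3). It was therefore higher in the group labelled deficient (log2 fold change 1.87 ± 0.20, SE, limma adjusted p = 0.0033), against the label. With Bcl2 it was lower there, at 10.14 ± 0.24 against 10.93 ± 0.09. The sources used here do not say which part of the gene was deleted, and a probe outside it would not check the label. Directions below are between libraries by label.

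Type I interferons bind the receptor chains Ifnar1 and Ifnar2, and interferon gamma binds Ifngr1 and Ifngr2. Kinases of the JAK family then phosphorylate STAT proteins. Stat2 and Irf9 are parts of the factor that binds the interferon-stimulated response element, and the gamma-activated site is bound downstream of interferon gamma. The induced proteins block viral replication, tag other proteins with Isg15, and cut and load peptides for MHC class I. In B cell progenitors, interferon is known to oppose growth driven by IL-7.

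The promoters of members that were higher in labelled deficient cells with Bcl2 (below) are shown first where they hold the core of the response element. RefSeq promoters of build GRCm38.p6 (250 bases before to 50 after the start site) were at hand for 44 of the 55 members, and for 18 of the 25 members that were higher. Both strands were searched for GAAANNGAAA, the core of the response element, and for TTCNNNGAA, the core of the gamma-activated site. The first was found in 6 of the 18 promoters, listed here 5′ to 3′ with the match in capitals (on the opposite strand it reads TTTCNNTTTC).
Ifit3: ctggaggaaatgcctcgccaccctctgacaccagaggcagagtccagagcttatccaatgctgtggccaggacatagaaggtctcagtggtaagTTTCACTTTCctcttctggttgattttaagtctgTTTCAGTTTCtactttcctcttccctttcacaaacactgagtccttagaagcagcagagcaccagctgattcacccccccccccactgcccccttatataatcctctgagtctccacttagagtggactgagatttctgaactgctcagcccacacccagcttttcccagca
Gbp2: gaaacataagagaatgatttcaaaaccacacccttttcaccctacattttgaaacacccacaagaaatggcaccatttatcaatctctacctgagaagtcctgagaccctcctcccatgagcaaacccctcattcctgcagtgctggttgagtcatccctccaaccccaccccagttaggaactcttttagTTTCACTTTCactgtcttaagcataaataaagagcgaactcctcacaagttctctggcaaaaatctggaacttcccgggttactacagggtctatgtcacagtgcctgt
Igtp: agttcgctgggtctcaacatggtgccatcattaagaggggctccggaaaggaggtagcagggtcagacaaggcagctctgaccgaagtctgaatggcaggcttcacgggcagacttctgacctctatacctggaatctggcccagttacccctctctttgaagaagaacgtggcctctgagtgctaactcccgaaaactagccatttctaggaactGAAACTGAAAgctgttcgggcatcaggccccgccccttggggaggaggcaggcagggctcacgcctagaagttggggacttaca
Gbp3: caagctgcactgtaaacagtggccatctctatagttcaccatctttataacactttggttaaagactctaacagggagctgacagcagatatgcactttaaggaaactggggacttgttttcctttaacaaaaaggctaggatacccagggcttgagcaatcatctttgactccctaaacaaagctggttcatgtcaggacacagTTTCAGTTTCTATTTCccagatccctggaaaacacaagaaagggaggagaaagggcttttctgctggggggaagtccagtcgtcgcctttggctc
Stat2: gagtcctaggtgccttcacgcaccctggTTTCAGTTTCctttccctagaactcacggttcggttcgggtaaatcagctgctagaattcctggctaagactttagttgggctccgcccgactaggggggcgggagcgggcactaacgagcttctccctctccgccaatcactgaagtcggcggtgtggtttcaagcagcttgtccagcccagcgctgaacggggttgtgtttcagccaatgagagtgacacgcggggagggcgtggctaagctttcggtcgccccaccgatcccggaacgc
Rsad2: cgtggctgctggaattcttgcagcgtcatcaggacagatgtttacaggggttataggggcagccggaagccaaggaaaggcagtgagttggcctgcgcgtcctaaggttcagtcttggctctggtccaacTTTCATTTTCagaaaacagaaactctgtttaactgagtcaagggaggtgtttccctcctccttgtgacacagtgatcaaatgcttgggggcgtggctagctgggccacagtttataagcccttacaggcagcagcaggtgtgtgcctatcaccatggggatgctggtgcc

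The sequences lie upstream of Ifit3 (chr19:34583279-34583578, plus strand), Gbp2 (chr3:142620413-142620712, plus strand), Igtp (chr11:58199306-58199605, plus strand), Gbp3 (chr3:142559794-142560093, plus strand), Stat2 (chr10:128270248-128270547, plus strand) and Rsad2 (chr12:26456403-26456702, minus strand), and each runs over the start site. The first matched base stood at -156 from the start site in Ifit3, which has 2 matches, at -59 in Gbp2, -34 in Igtp, -45 in Gbp3, -222 in Stat2 and -120 in Rsad2. The capitals of Gbp3 cover 2 matches that overlap. By gene, GAAANNGAAA was present in 16 of 44 members (36.4%) and in 3.99% of the 27025 genes of the table. Among the members tested it was present in 6 of 18 that were higher and in 7 of 18 others. TTCNNNGAA was present in 15 of 44 members and in 9.55% of all genes, in 4 of the 18 higher members and 8 of the 18 others. The matches of both motifs overlapped in 2 members and in 23 genes of the table. A gene with several start sites counted once, if any of its promoters held the motif.

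The clearest pattern of the list was a rise in labelled deficient cells with Bcl2. On the log2 scale, 25 of the 45 kept members were higher in these cells than in Bcl2 controls and 1, Ifitm3, was lower (limma, adjusted p under 0.05 over all genes), while 19 did not pass. Of all genes tested in that comparison, 12.8% were higher and 12.3% lower. Irf7, Oasl1 and Rtp4, among the 25, met the rule of 3 pro-B arrays only through the group in which they were high. With detection asked on 6 or more arrays, 22 of 41 members were higher and 1 lower. Of the 8578 genes then tested, 1152 were higher and 1206 lower. The members had a median log2 fold change of 0.85, or 0.75 with members below background in a group at their bound, against 0.04 for all genes, and 39 of 45 were positive. The 3 arrays of the group stood above each of the other 9 pro-B arrays for 23 members and below each of them for 1, and the same held for 19.1% and 14.9% of all genes. The group had the highest mean of the 4 pro-B groups for 34 of the 45 members and 40.3% of all genes. In the authors' deposited table, whose scores are standardised per probe, 15 were higher and 0 lower, and 90.9% of the calls over all genes were higher, against 51.0% here. Without control replicate 3, an array outside this comparison that shares its estimate of spread, 31 members were higher and 1 lower, while 2135 of the 9687 genes were higher and 1931 lower. In these bulk cultures, fewer cells of a type and less RNA per cell cannot be told apart.

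**Figure D1:**
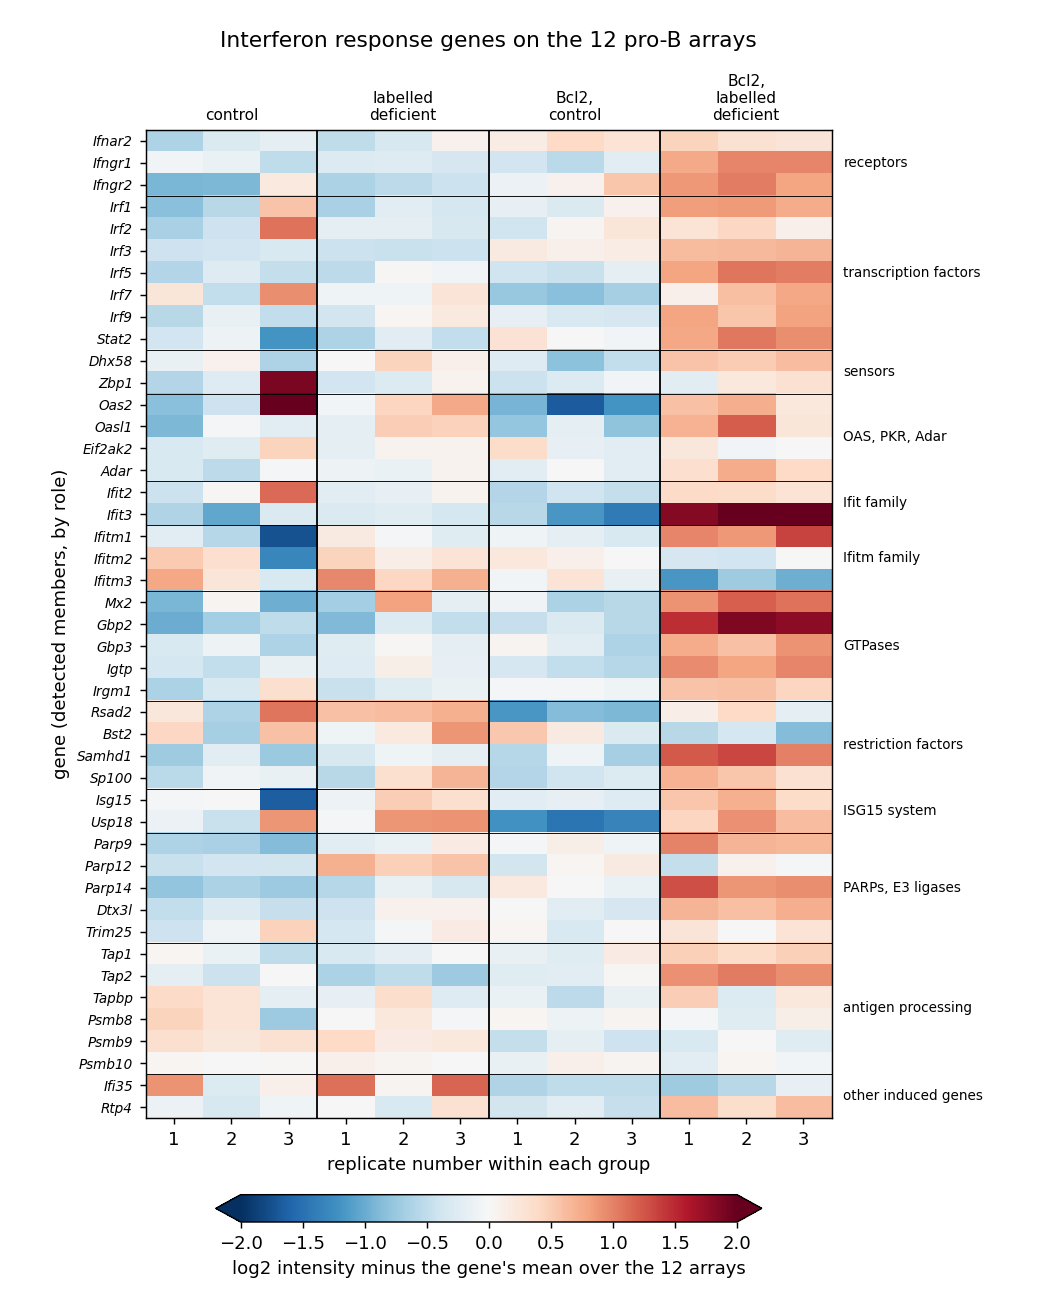
Heat map of the 45 kept interferon response genes (grouped by role) on the 12 pro-B arrays, as log2 intensity minus each gene's mean over the 12 arrays, with colours cut at 2 log2 units each way. The 3 arrays labelled deficient with Bcl2 are the highest of the 12 for 23 genes, and control replicate 3 differs from its group in genes such as Oas2, Zbp1 and Ifitm1.

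Of the ligands, 8 of 9 listed genes had a named probe and only Ifna1 was detected on 3 or more pro-B arrays. Ifna1 did not pass in any comparison (log2 fold change -0.01 ± 0.40 with Bcl2). Of the 3 receptor chains measured, Ifngr1, the ligand-binding chain for interferon gamma, rose. In labelled deficient cells with Bcl2 it read 10.61, 10.83 and 10.83, against 9.46, 9.31 and 9.61 on the Bcl2 controls. Without Bcl2 it read 9.58, 9.59 and 9.51 against 9.79, 9.71 and 9.34. The first 3 arrays lie above all 9 others, which overlap one another. The rise was 1.29 ± 0.16 (limma adjusted p = 0.00015). Ifngr2, its partner chain, was 0.72 ± 0.28 higher and did not pass (adjusted p = 0.085), though it did without control replicate 3. Ifnar2 differed by 0.06 ± 0.18 and did not pass.

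Of the 7 transcription factors 6 rose and Irf2, a repressor of Irf1 targets, did not pass. Irf5, a factor downstream of Toll-like receptors, averaged 11.94 ± 0.16 in labelled deficient cells with Bcl2 and 10.64 ± 0.14 in Bcl2 controls (SD, n = 3). The groups did not overlap, and the rise was 1.30 ± 0.18 (limma adjusted p = 0.00036). Irf9, the DNA-binding partner of Stat2, rose by 0.98 ± 0.18 and Stat2 itself by 0.85 ± 0.25. A second Irf9 probe, at 0.56, did not pass. Irf1, a factor induced by interferon gamma, rose by 0.93 ± 0.30 (adjusted p = 0.042). Its call was lost in 12 of 30 alternative settings. In a fit over all kept probes its own probe stood at an adjusted p of 0.0503 and 3 of its 4 other probes passed. Irf3, which acts downstream of nucleic acid sensors, had the smallest rise, 0.50 ± 0.12. Its 3 arrays read 13.50, 13.52 and 13.56 against 13.06, 12.98 and 13.03, without overlap. Its 2 other probes, at 0.01 and 0.31, did not pass. Irf7, which drives interferon alpha genes, was below background on all 3 Bcl2 controls and was at least 1.39-fold higher.

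Ifit3, an antiviral RNA-binding cofactor of the Ifit family, had the largest rise of the list. It read 10.10, 10.32 and 10.29 on the labelled deficient arrays with Bcl2 and 7.71, 7.09 and 6.84 on the Bcl2 controls. Without Bcl2, labelled deficient cells read 7.96, 8.01 and 7.91 and controls 7.65, 7.22 and 7.97. The first group lies above every other array, and the other 9 arrays lie between 6.84 and 8.01. The rise was 3.02 ± 0.24 (limma adjusted p = 4.9e-06). A second, dimmer Ifit3 probe was detected on 4 of the 15 arrays, which include all 3 of these labelled deficient arrays and 0 of the 3 Bcl2 controls. Ifit2, of the same family, was 0.83 ± 0.31 higher and did not pass (adjusted p = 0.073).

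Of the 5 interferon-induced GTPases kept, 4 rose. Gbp2, a guanylate-binding protein of cell-autonomous immunity, read 13.88, 14.27 and 14.19 on the labelled deficient arrays with Bcl2 and 11.93, 12.11 and 11.84 on the Bcl2 controls. Without Bcl2 it read 11.52, 12.12 and 11.91 against 11.41, 11.72 and 11.89. The last 3 groups overlap and the first stands apart from them. Gbp2 rose by 2.15 ± 0.20 (adjusted p = 1.7e-05), and its relative Gbp3 by 1.01 ± 0.20. Igtp, an immunity-related GTPase induced by interferon gamma, read 11.01, 10.86 and 11.05 against 9.73, 9.58 and 9.50 and rose by 1.37 ± 0.16 (adjusted p = 9.4e-05). Mx2, a dynamin-like antiviral GTPase, rose by 1.48 ± 0.37. Irgm1, which guards against vacuolar pathogens, was 0.58 ± 0.21 higher, and did not pass (adjusted p = 0.069). With the replicate number as a block its adjusted p was 0.038. A second Irgm1 probe, at 0.90, passed in the fit over all kept probes.

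**Figure D2:**
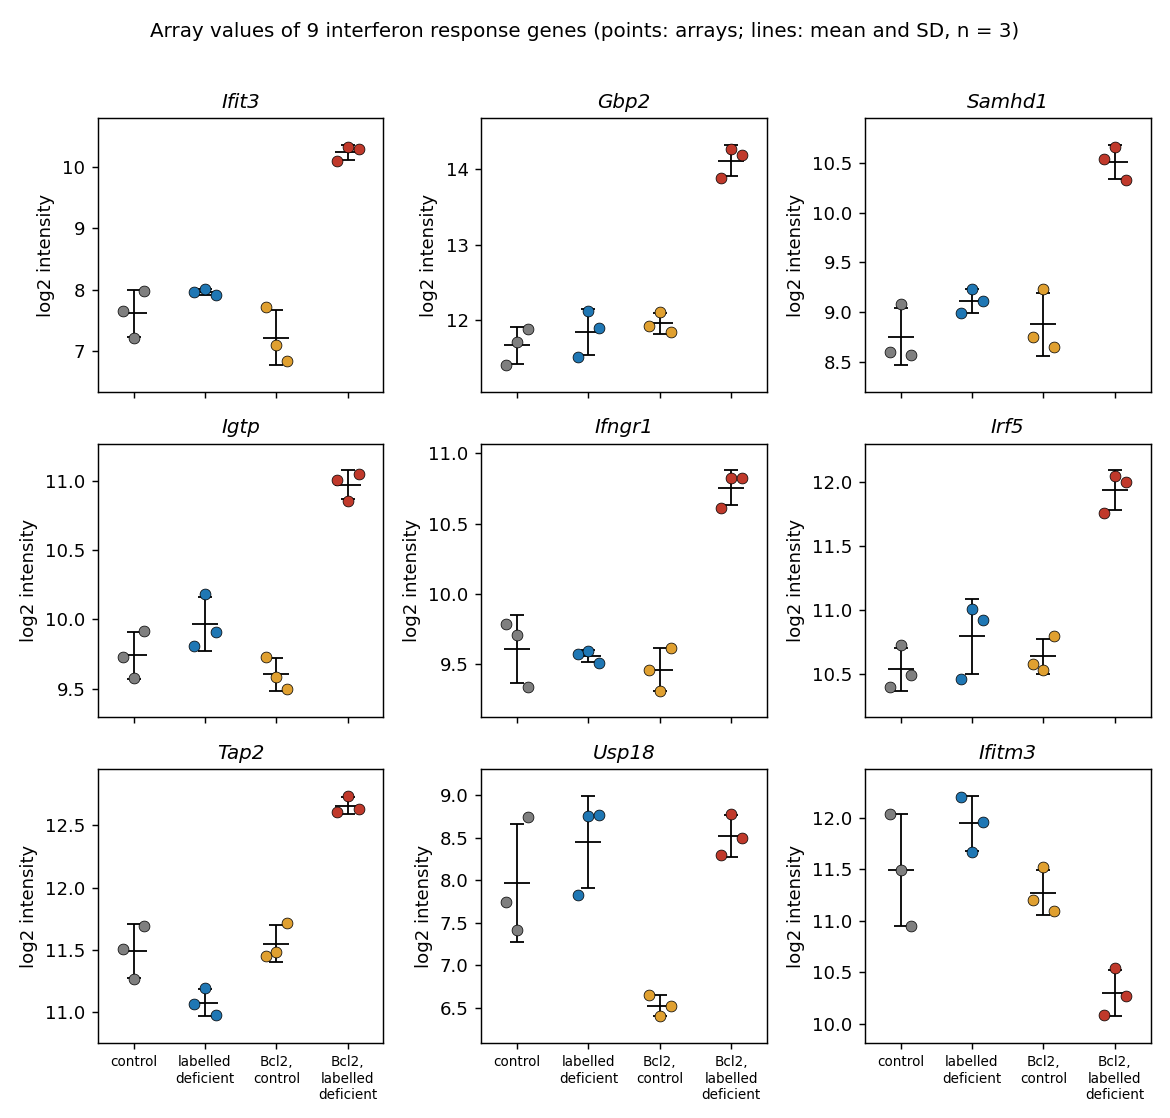
Log2 intensity of 9 members on each pro-B array (points) with the mean and SD of each group of 3 (lines). The arrays labelled deficient with Bcl2 (red) lie above all others in 7 panels and below all others for Ifitm3, and Usp18 is low on the Bcl2 controls.

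Of the antiviral effectors, Samhd1, which removes deoxynucleotides, read 10.54, 10.66 and 10.32 on the labelled deficient arrays with Bcl2 and 8.75, 9.24 and 8.65 on the Bcl2 controls. It rose by 1.63 ± 0.20 (adjusted p = 0.00015), and a second probe by 2.06 ± 0.25. Sp100, a nuclear body protein, rose by 0.94 ± 0.28, and its second kept probe, at 1.11, did not pass. Rsad2, the antiviral enzyme viperin, was below background on the Bcl2 controls and at least 1.45-fold higher. Its mean of 6.33 in labelled deficient cells with Bcl2 was not above those without Bcl2, at 6.86 in labelled deficient cells and 6.44 in controls. Oasl1, an oligoadenylate synthetase-like protein, was also below background on the Bcl2 controls and at least 1.71-fold higher. Dhx58, a regulator of RNA sensing, rose by 1.09 ± 0.22 and Adar, the RNA editing enzyme, by 0.64 ± 0.18, with 1 of its 3 other kept probes also higher (0.91) and the others at -0.44 and -0.17, which did not pass. Oas2, a synthetase that activates RNA decay, was 1.77 ± 0.65 higher and did not pass (adjusted p = 0.069). It read 8.62, 8.76 and 8.25 against 7.11, 6.38 and 6.84, without overlap. Control replicate 3, without Bcl2, stood at 10.45 against 7.21 and 7.62 on the other controls, and with that array left out the adjusted p was 0.00025. Eif2ak2, the kinase PKR, and Zbp1, a sensor of Z-form nucleic acid, differed by 0.07 ± 0.23 and 0.35 ± 0.49, and Bst2, which tethers virions, by -0.74 ± 0.35. None of these passed.

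The 3 Ifitm genes, which code for membrane proteins that hinder viral entry, did not move together. Ifitm1 rose by 1.26 ± 0.32 (adjusted p = 0.014), reading 14.57, 14.46 and 14.94 against 13.51, 13.39 and 13.30. A second Ifitm1 probe, at 1.00, did not pass. Ifitm3 read 10.09, 10.54 and 10.27 against 11.20, 11.52 and 11.10, and it fell by 0.97 on the log2 scale (SE 0.26, adjusted p = 0.018). Its call was lost with the deposited scores, within slide 1 and without labelled deficient Bcl2 replicate 1 or 3 or Bcl2 control replicate 2, with values from -1.12 to -0.85 over the alternatives on the log2 scale. Ifitm2 differed by -0.34 ± 0.38 and did not pass.

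Usp18, the protease that removes Isg15 from proteins and dampens type I signalling, rose by 1.99 ± 0.34 (adjusted p = 0.0013). A second Usp18 probe, at 1.06, did not pass. The pattern of Usp18 differed from that of Ifit3. The labelled deficient arrays with Bcl2 read 8.29, 8.78 and 8.49, the Bcl2 controls 6.65, 6.41 and 6.52, the labelled deficient arrays without Bcl2 7.82, 8.75 and 8.77 and their controls 7.74, 7.41 and 8.75. The Bcl2 controls were the low group and the other 3 overlapped. Isg15, the ubiquitin-like protein itself, was 0.75 ± 0.36 higher and did not pass. Parp14, Parp9 and Dtx3l, a group of ADP-ribosylation and ubiquitin ligase proteins that work with STAT signalling, rose by 1.01 ± 0.17, 0.78 ± 0.16 and 0.85 ± 0.17. Second probes of Parp14 (0.95) and Dtx3l (-0.49 ± 0.31) did not pass. Parp12, below background on the Bcl2 controls, and Trim25, a ubiquitin ligase for RNA sensing (0.27 ± 0.23), did not pass. Rtp4, an induced chaperone of receptor transport, was below background on the Bcl2 controls and at least 1.41-fold higher, and Ifi35 differed by 0.06 ± 0.33.

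Of the 6 antigen processing genes 1 rose. Tap2, a chain of the peptide transporter of MHC class I loading, read 12.61, 12.74 and 12.63 on the labelled deficient arrays with Bcl2 and 11.45, 11.48 and 11.72 on the Bcl2 controls. Without Bcl2, labelled deficient cells read 11.06, 11.19 and 10.97, below all 3 controls at 11.51, 11.26 and 11.69. The rise with Bcl2 was 1.11 ± 0.16 (adjusted p = 0.00037). Its partner chain Tap1 was 0.51 ± 0.18 higher and did not pass (adjusted p = 0.058), though its groups did not overlap. The immunoproteasome subunits Psmb8, Psmb9 and Psmb10 differed by -0.05 ± 0.26, 0.18 ± 0.15 and -0.09 ± 0.14, and Tapbp, the loading chaperone, by 0.41 ± 0.25.

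Without Bcl2, none of the 45 members passed between labelled deficient and control cells in limma. An unadjusted p under 0.05 was found for 5 of them and for 581 of all 9687 genes. Of all genes, 0.0103% were higher and 0.0206% lower. The member median was 0.21, or 0.11 with bounds, against 0.01 for all genes, and 32 of 45 members were positive. The smallest p belonged to Parp12, an ADP-ribosyltransferase that blocks viral translation. Labelled deficient cells read 6.32, 6.09 and 6.19, and it was below background on all 3 controls, at 5.17, 5.24 and 5.25. It was at least 1.02-fold higher and did not pass (adjusted p = 0.24). Parp9, also below background on these controls and with no bound above 1 (adjusted p = 0.58), Tap2 (-0.41 ± 0.16, 0.76) and Ifitm1 (0.81 ± 0.32, 0.77) came next. The 95% interval of the difference ran from -0.17 to 0.87 for Ifit3, from -0.26 to 0.61 for Gbp2 and from -0.41 to 0.30 for Ifngr1. These intervals lie below the values measured with Bcl2.

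Control replicate 3 bears on that comparison. It was dim, with a mean signal of 187 against 445 to 769 on the other pro-B arrays, and correlated at 0.917 to 0.919 with the other controls. It lay over 1 log2 unit from the mean of those controls for 13 of 45 members (28.9%) and 30.7% of all genes. Oas2 was 3.03 higher there, Zbp1 2.30 and Irf2 1.61, whereas the gap was -1.73 for Ifitm2 and -1.63 for Isg15. Without this array 0 members passed, with a median of 0.26. Within slide 2, where it is the only control without Bcl2, 9 members were higher and 5 lower, where 31.9% of all genes passed. Within slide 1, with 2 arrays per group, 0 passed.

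The effect of the Bcl11a label with Bcl2 minus that without Bcl2, tested as an interaction over the 12 arrays, passed for 9 of 45 members, 7 higher and 2 lower. Of all genes, 4.64% were higher and 6.17% lower. The member median was 0.65 against 0.04. Ifit3 had the largest difference of effects, 2.68 ± 0.34 (limma adjusted p = 0.00044), followed by Gbp2 at 1.97 ± 0.28 and Tap2 at 1.52 ± 0.22. Ifngr1 differed by 1.34 ± 0.23, Samhd1 by 1.26 ± 0.28, Igtp by 1.14 ± 0.22 and Irf5 by 1.04 ± 0.26. Tap2 was the one of these 7 whose arrays without Bcl2 lay lower in the labelled deficient group with no overlap. The lower differences were those of Ifitm3, at -1.43 ± 0.37, and Parp12. Parp12 was below background on both control groups, so that its difference has no measured size. Without control replicate 3, 15 members were higher and 2 lower, and these included the 9, while the share of all genes passing went from 10.8 to 20.8%.

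**Figure D3:**
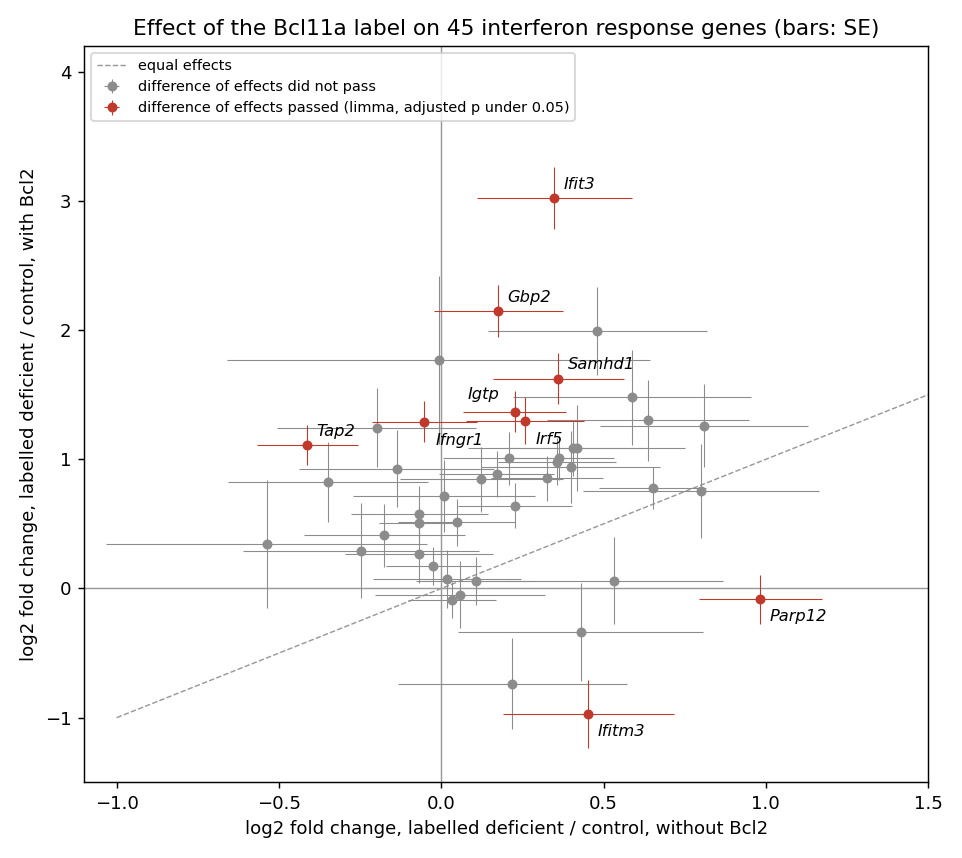
Log2 fold change of labelled deficient over control cells without Bcl2 (horizontal) and with Bcl2 (vertical) for the 45 members, with SE bars. The 9 members whose difference of effects passed are red and named, and the dashed line marks equal effects. Ifit3 stands at 3.02 with Bcl2 and 0.35 without it.

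Bcl2 cells were also compared with cells without Bcl2 within each label. These comparisons share arrays with those above, so their values stand beside them and add no independent count. In labelled deficient cells, 23 of 45 members were higher with Bcl2 and 4 were lower, where 21.3% of all genes were higher and 18.2% lower. The member median was 0.53 against 0.05. Gbp2 was 2.26 ± 0.20 higher, Ifit3 2.28 ± 0.24, Tap2 1.58 ± 0.16, Samhd1 1.39 ± 0.20 and Parp14 1.38 ± 0.17. Ifngr1 was 1.20 ± 0.16 higher, Irf5 1.14 ± 0.18, Irf3 1.08 ± 0.12 and Igtp 1.01 ± 0.16. All 3 measured receptor chains and all 5 measured GTPases passed. The 4 lower members were Ifitm3 (-1.64 ± 0.26), Ifi35 (-1.25 ± 0.33), Parp12 (-0.72 ± 0.19) and the immunoproteasome subunit Psmb9 (-0.44 ± 0.15). Parp12 was detected on 1 of the 3 labelled deficient arrays with Bcl2, so the size of its fall is uncertain. Ifi35, a protein that binds the factor Nmi, read 7.38, 7.53 and 7.94 with Bcl2 and 9.20, 8.15 and 9.27 without it, with no overlap. Usp18 differed by 0.07 and did not pass.

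In control cells, 3 members were higher with Bcl2 and 3 lower, where 4.28% of all genes were higher and 3.85% lower. The member median was 0.03, the same as for all genes. Parp14 was 0.74 ± 0.17 higher and Irf3 0.51 ± 0.12. Parp9 passed from below background on the controls without Bcl2, with no bound above 1. Usp18 was lower, at -1.44 ± 0.34, and Psmb9, at -0.64 ± 0.15. Rsad2 was below background with Bcl2 and at least 1.56-fold lower. With only these 2 groups fitted 0 members passed. Without Bcl2 control replicate 1, 2 or 3 the number passing was 0, 1 and 1, and without control replicate 1 it was 3. Without control replicate 3, 6 members were higher and 3 lower, while the share of all genes passing went from 8.13 to 20.5%. With each array scaled by its median the calls were 0 higher and 2 lower, and the share of higher genes among all calls fell from 52.7 to 31.6%. For Ifit3 the 95% interval ran from -0.92 to 0.12 and for Gbp2 from -0.15 to 0.73.

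DN3 cells were compared with control pro-B cells after all 15 arrays were normalised together, with 10290 genes tested. Of the 45 members, 12 were higher in DN3 cells and 6 lower, where 20.9% of all genes were higher and 24.3% lower. Adar is among the 12 through a probe at 0.75, its brightest over all 15 arrays. The probe that stands for Adar in the pro-B comparisons was at -1.04 in DN3 cells. Its other kept probes were at -1.45 and -0.51. In a fit over all kept probes, all but the last passed. The member median was 0.19, or 0.11 with bounds, against -0.07. With only these groups fitted 6 were higher and 3 lower, and with each array scaled by its median 13 and 4, while the share of higher genes among all calls went from 46.2 to 67.1%. With the deposited scores 4 members were higher and 8 lower, 3 of the 18 calls were shared, 9 of 45 members were positive and the member median was -0.61 in SD units, against -0.77 for all genes. All DN3 arrays lie on a slide of their own, and their intensities, unlike those of pro-B arrays, are not net of background. Slide, background handling, strain label, genotype label and group therefore cannot be told apart. Ifngr1 read 11.92, 11.90 and 11.72 on the DN3 arrays against 9.53, 9.45 and 9.08 on the controls, a difference of 2.50 ± 0.15 (limma adjusted p = 1.3e-08). Igtp was 2.41 ± 0.21 higher and Tap2 1.88 ± 0.15. The interferon alpha receptor chain Ifnar2 was 1.13 ± 0.17 higher, Dtx3l 1.22 ± 0.18, Sp100 1.13 ± 0.28 and Irf3 0.46 ± 0.12. Their other kept probes did not pass in the fit over all kept probes. These stood at -0.48 and 0.66 for Ifnar2, -0.70 for Dtx3l, 0.75 for Sp100, and 0.29 and 0.80 for Irf3. Irf5 was the lowest member relative to pro-B cells, at 5.93, 6.57 and 7.15 against 10.13, 10.46 and 10.23, a difference of -3.73 ± 0.25. Gbp3 (-1.97 ± 0.24) and Tapbp (-1.36 ± 0.24) were also lower. A second Gbp3 probe, at -1.20, passed in that fit, and a second Tapbp probe, at -0.19, did not. Of members named by smallest p, Ifngr1, Igtp, Tap2, Dtx3l, Sp100 and Irf3 were also higher in labelled deficient cells with Bcl2 than in Bcl2 controls. Irf5 and Gbp3 were lower here and higher there.

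**Figure D4:**
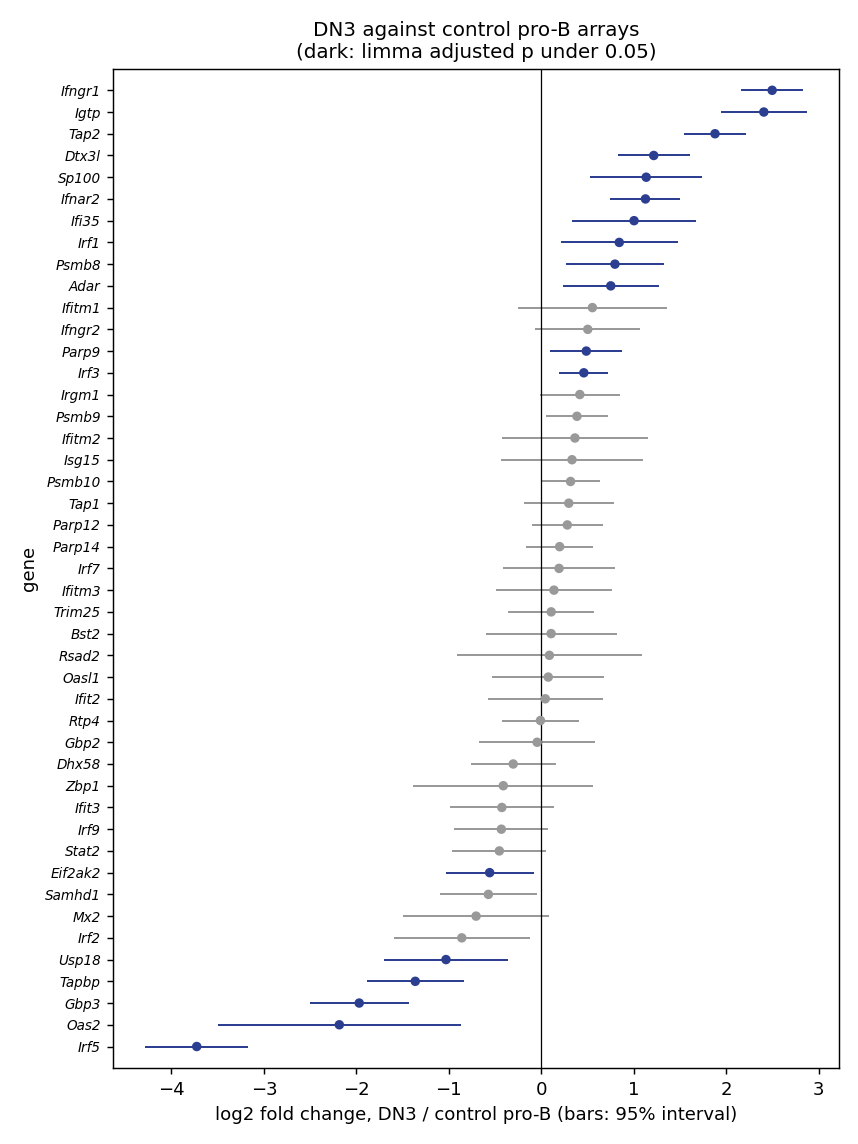
Log2 fold change of DN3 over control pro-B arrays for the 45 members (points) with the 95% interval of the limma fit (bars). Dark points passed, 12 above and 6 below 0, from Ifngr1 at 2.50 down to Irf5 at -3.73. Adar is shown by a different probe than in the pro-B comparisons.

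A further 95 genes of the pathway that are not members gave 62 tested in pro-B cells. With Bcl2, 26 were higher in labelled deficient cells than in controls and 2 lower, with a median of 0.63, beside 12.8% and 12.3% of all genes. Socs3, a feedback inhibitor of cytokine receptors, rose by 2.13 ± 0.21, and the STAT protein Stat4 by 1.80 ± 0.17. Sting1, the adaptor of cytosolic DNA sensing, rose by 1.51 ± 0.18 and the chemokine Ccl5 by 1.99 ± 0.27. The GTPases Irgm2 and Gbp5 rose by 1.51 ± 0.22 and 1.70 ± 0.28, the inflammatory caspases Casp4 and Casp1 by 1.83 ± 0.23 and 1.11 ± 0.14, and the growth regulator Slfn2 by 2.04 ± 0.26. The MHC class I heavy chain H2-K1 rose by 1.08 ± 0.19. The 2 lower genes were Cgas, the DNA sensor (-0.97 ± 0.30), and Nlrc5, an activator of MHC class I genes (-0.67 ± 0.19). Without Bcl2 0 of the 62 passed in limma and 3 had an unadjusted p under 0.05, beside 581 of all 9687 genes. The difference of effects passed for 13 higher and 1 lower, led by Stat4 (2.06 ± 0.25), Socs3 (2.24 ± 0.30), Casp4 (1.79 ± 0.32), Casp1 (1.08 ± 0.20) and Ccl5 (2.06 ± 0.38). Slfn2 (1.73 ± 0.36), Sting1 (1.18 ± 0.26), Irgm2 (1.38 ± 0.31), H2-K1 (1.15 ± 0.27) and Samd9l, an antiviral translation inhibitor (1.49 ± 0.37), followed.

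Among labelled deficient cells, 30 of these 62 genes were higher and 4 lower with Bcl2 than without it, beside 21.3% and 18.2% of all genes. They include the kinase Tyk2 (1.11 ± 0.15), the lymphoid factor Irf4 (1.53 ± 0.19), the class I chain H2-Q7 (1.90 ± 0.21), Uba7, the activating enzyme for Isg15 (1.71 ± 0.23), and H2-K1 (1.45 ± 0.19). Stat4 (1.93 ± 0.17), Socs3 (2.19 ± 0.21), Sting1 (1.83 ± 0.18) and Irgm2 (1.59 ± 0.22) were also higher, and Ccl5 was at least 4.13-fold higher. In control cells 3 were higher and 4 lower with Bcl2, beside 4.28% and 3.85% of all genes. Irf4 was 1.24 ± 0.19 higher and Tyk2 0.54 ± 0.15, while Socs1, a feedback inhibitor, passed from below background with no bound above 1. Ciita, the activator of MHC class II genes, was lower (-2.31 ± 0.50), as were Cmpk2 (-1.61 ± 0.35), the Isg15 conjugating enzyme Ube2l6 (-0.87 ± 0.20) and the RNA sensor Tlr7 (-0.92 ± 0.24). In DN3 cells 16 of 63 were higher and 17 lower, beside 20.9% and 24.3% of all genes. Irf4 (-4.27 ± 0.24), Irf8, a factor of B and myeloid cells (-3.12 ± 0.33), Ube2l6 (-2.96 ± 0.22), Casp4 (-2.53 ± 0.26) and Mlkl, an effector of necroptosis (-2.26 ± 0.26), were lower, and Cmpk2 was at least 5.10-fold lower. The receptor kinase Jak1 was at least 4.05-fold and Socs1 at least 1.53-fold higher, and Socs3 (2.68 ± 0.22) and Lgals3bp (1.95 ± 0.23) were higher.

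Markers of other cells moved with some of these groups. The summed linear level of 11 neutrophil and monocyte genes was 8426 to 14389.5 on the labelled deficient arrays and 8405 to 15467 on the controls without Bcl2, against 1722 to 3411 and 530.3 to 720.2 with Bcl2. Of 8 tested, 7 were lower with Bcl2 in control cells, and 6 were lower and 1 higher with Bcl2 in labelled deficient cells. In labelled deficient cells with Bcl2, 3 were higher than in Bcl2 controls. The 1 higher with Bcl2 in labelled deficient cells was Fcgr3, at a mean log2 intensity of 10.41. Its mean was 7.31 in labelled deficient cells and 7.09 in controls without Bcl2, and 7.19 in Bcl2 controls. Mpo and S100a8 were detected in both groups without Bcl2 and were below background on all arrays of both Bcl2 groups. Itgam was below background in every group. Adgre1 and S100a9 were so in every group but labelled deficient cells without Bcl2. The part of these cells in the members' values was not tested. The early B cell list was summed at 135630.0 to 139554 in labelled deficient cells with Bcl2 and at 98308 to 117334 in the other pro-B groups, with 3 of 8 genes higher with Bcl2. The plasmacytoid dendritic cell list stood at 6417 to 10558 on all pro-B arrays and 0 of 6 tested genes passed in any pro-B comparison. The T cell list stood at 246 to 420 in pro-B cells and 103653 to 105400.0 in DN3 cells, where Vpreb1, Igll1 and Blnk were below background. Pax5 was below background in DN3 cells, and also in labelled deficient cells without Bcl2 and in Bcl2 controls. Of 8 conventional dendritic cell genes, Itgax, Batf3, Clec9a, Cd209a and Fscn1 were below background in every pro-B group, and of 3 tested 1 was higher in labelled deficient cells with Bcl2. Of 6 NK cell genes, Ncr1, Klrb1c, Klrk1 and Gzmb were below background in every group. Nkg7 was lower in labelled deficient cells with Bcl2 than in Bcl2 controls (-2.28 ± 0.39) and lower in the difference of effects (-3.28 ± 0.55). It was higher with Bcl2 in control cells (2.22 ± 0.39), lower with Bcl2 in labelled deficient cells and higher in DN3 cells. Prf1 was higher with Bcl2 in labelled deficient cells and in DN3 cells.

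Slides were split across the groups, with 6 pro-B arrays on slide 1 and 6 on slide 2. With the slide as a block, 29 members were higher and 1 lower in labelled deficient cells with Bcl2, where 28.2% of all genes passed. The difference of effects then passed for 9 and 2, beside 13.1% of all genes. Within slide 1, with 1 array per group, assumed to vary like the other groups, 2 members (Ifit3 and Ifngr1) were higher with Bcl2 and the member median was 0.83. Within slide 2 the count was 29 higher and 1 lower, where 28.4% of all genes passed, and the member median was 0.77. Over both slides the median was 0.85.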

How the data were processed

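RNA of each of the 15 samples was hybridised to 1 Illumina bead array. The authors deposited intensities per probe, not normalised between arrays. From the values, pro-B intensities are net of background (33.2 to 39.9% of probes fall below 0), and DN3 intensities are not. They also deposited a detection fraction per probe (taken here as 1 minus the detection p) and a table of scores, centred and divided by the SD per probe, as checked against the intensities. No source used here names the scanner software.

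In R 4.3.3 with limma 3.58.1, intensities were background-corrected by normexp, quantile normalised and log2 transformed (neqc, offset 16). Probes with 1 gene symbol (34874 of 45263) detected at p under 0.05 on 3 or more arrays were fitted, with the brightest kept probe for each gene. One linear model over 12 arrays (15 for DN3) gave moderated tests with Benjamini-Hochberg adjustment over all genes; limma's adjusted p under 0.05 is called passing. Simulated data served to test the fit. Counts of genes higher or lower are of those that passed, and a gene said not to have passed is given by its value only. A group not above background on any array gives a bound ("at least"), from the lowest signal among detected probes. The members and lists were chosen with earlier results of these data known. Members passing were named by smallest p, up to 24 in the comparison with Bcl2 and the difference of effects and 10 elsewhere (4 where none passed), and others by role. Same-numbered arrays within a Bcl2 background deviated together (correlation 0.23 to 0.39 over genes). Those arrays also share a slide, so a pairing of cultures and an effect of the slide cannot be told apart. Across backgrounds the correlation was -0.20 to 0.32. The number of arrays limits precision.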

Additional observations from a re-analysis of the deposited data

Results flagged for a closer look

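The effect of the Bcl11a label differed between cells with and without Bcl2 for 9 members, by limma's interaction term. The difference, with Bcl2 minus without, was 2.68 (log2) for Ifit3, 1.97 for Gbp2, 1.52 for Tap2, 1.34 for Ifngr1, 1.26 for Samhd1, 1.14 for Igtp and 1.04 for Irf5. It was -1.43 for Ifitm3. For Parp12 the fitted value was -1.07, with no measured size, since it was below background in both control groups.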

How the results depend on the processing

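The members passing between labelled deficient and control cells with Bcl2 numbered 26. They were 2 within slide 1, which holds 1 array of each Bcl2 group, and 15 with the deposited scores. Without Bcl2 the number was 0 except within slide 2, where it was 14 and the dim control replicate 3 is the lone control, assumed to vary like the other groups. The difference of effects passed for 9 members, for 21 with array weights, 0 within slide 1, 20 within slide 2, 0 with the deposited scores, 17 with the arrays renormalised without control replicate 3 (chosen after seeing the data), and 6 to 17 with 1 array left out. Bcl2 against none in control cells passed for 6 members, for 2 with median scaling, 0 with only the groups compared, 0 within slide 1, 16 within slide 2 (where 42.0% of all genes passed), 0 with the deposited scores and 0 to 9 with 1 array left out. In labelled deficient cells the number was 27, and 13 with the deposited scores. DN3 against control passed for 18, for 9 with only the groups compared and 11 with these arrays normalised alone. Fits within a slide rest on fewer arrays, and the cause of these changes was not tested. With the replicate number as a block within each Bcl2 background, 28 members were higher and 1 lower with Bcl2, and 9 and 2 for the difference of effects. The 26 and the 9 members were among them, and Irgm1, Oas2 and Ifit2 also passed with Bcl2. Of all genes, 27.1% passed with this block in the comparison with Bcl2 and 12.3% for the difference of effects. No such block could be fitted for Bcl2 against none. A block of replicate number across all pro-B groups gave 3 members higher and 3 lower in control cells. Of these, 5 were also called without the block. In labelled deficient cells it gave 23 higher and 4 lower. Of all genes, 8.49% passed with it in control cells and 41.4% in labelled deficient cells. Parp9 without Bcl2 turned to -0.0389 with median scaling. With the deposited scores, in SD units, Tap2 without Bcl2 turned to 0.0741, and in DN3 cells Tap2 stood at -0.243, Dtx3l at -0.542, Ifnar2 at -0.247, Sp100 at -0.391 and Irf3 at -0.939. Median scaling moved the median of all genes to -0.17 without Bcl2, 0.27 for the difference of effects, -0.18 for Bcl2 in control cells and 0.35 for DN3. Over all alternatives, 1732 of 1919 values of named members kept their direction and side of the threshold, 177 lost the call, 3 gained it and 7 turned. Signal over background limits Parp12, Parp9, Irf7, Oasl1, Rsad2 and Rtp4.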
